A study of Mus musculus with 6 samples.

Results

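The MYC and MAX network is a family of paired DNA-binding proteins, and 10 of its genes were followed here: Myc, Mycn, Mycl, Max, Mxd1, Mxd3, Mxd4, Mxi1, Mnt and Mlx. They were chosen by gene symbol in the platform annotation. Each has 1 probe set, so the members are 10 of the 22206 probe sets of the array. The arrays come from mouse HoxB8 neutrophil progenitors, in which the homeobox factor Hoxb8 blocks maturation, taken on day 1 of differentiation in medium with serum and SCF (stem cell factor) supernatant. The K313 group (3 arrays) expressed the K313 form of C/EBPα found in acute myeloid leukaemia, and the WT group (3 arrays) expressed wild-type C/EBPα. The labels do not say how either form was introduced, whether a group is 1 clone, or whether its replicates were separate cultures. The p-values therefore rest on a spread between samples that may be only technical.

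Proteins of this network bind DNA as pairs at the sequence CACGTG, the E-box. MYC, N-MYC and L-MYC pair with MAX and activate genes of growth, ribosome production and division, while MXD proteins, MXI1 and MNT compete for MAX and bring SIN3 corepressors to the same sites. MLX is a parallel partner that pairs with MondoA, ChREBP, MNT and some MXD proteins and links the network to glucose. In granulocyte formation MYC falls, MXD1 rises, and C/EBPα is known to repress Myc. The comparison asks whether these genes and those they act with differ between the 2 forms of C/EBPα.

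Values are log2 RMA levels, from 2.21 to 18.59 over the whole table, and each difference is a log2 K313 level minus the WT level, given with the standard error of the limma fit. Arrays correlated at 0.995 to 0.996 within K313, at 0.994 to 0.995 within WT and at 0.983 to 0.989 between groups (Pearson's r across probe sets, not independent points). WT replicate 3 stood apart: its correlations with K313 were 0.987 to 0.989. The granule gene Chil3 read 8.78 there against 3.58 and 3.26 on the other WT arrays, and the glutathione transferase Mgst1 read 9.46 there against 5.52 and 6.26. The groups also differed in a Y-linked gene: Eif2s3y read 12.37, 12.09 and 12.24 in K313 and 3.11, 2.93 and 7.03 in WT, a difference of 7.88 ± 0.83 (limma adjusted p = 9.04e-05). WT replicate 3 lay between the other WT arrays and K313 in these genes, and what accompanies the Y-linked difference cannot be told apart from the C/EBPα form. Results below are also given without WT replicate 3 where it matters. The Cebpa transcript differed by -0.51 ± 0.21 (limma adjusted p = 0.212), and Hoxb8 by -4.64 ± 0.25 (adjusted p = 1.15e-06). Whether these probe sets see the introduced copies is not stated. Hoxb8 read 8.06, 8.53 and 8.42 in K313 and 12.45, 13.49 and 12.99 in WT. What accompanies the Hoxb8 difference likewise cannot be told apart from the C/EBPα form, in all results below. Of 14 neutrophil markers 11 had a mean above 5 in at least 1 group, and levels of at most 5 are not distinguished from background here. Of the 14, 5 rose and 1 fell, where 3.77% of all probe sets were called higher and 3.97% lower. Their log2 sum was 19.26 to 19.33 in K313 and 18.78 to 18.87 in WT. The late granule genes Ltf and Camp were near background in both groups. Markers of other cells differed too: 2 of 7 monocyte and macrophage markers rose and 1 fell. In the basophil and mast cell list 4 of 8 fell and 1 rose. Falls were found in 3 of 6 erythroid and megakaryocyte, 4 of 6 lymphocyte and 1 of 6 dendritic cell markers. These counts stand against the same 3.77% higher and 3.97% lower over all probe sets. The log2 of the summed linear levels of the monocyte list was 14.31 to 14.42 in K313 and 11.76 to 12.59 in WT, that of the basophil and mast cell list 17.55 to 17.80 in K313 and 18.22 to 18.37 in WT. The erythroid and megakaryocyte list summed to 8.74 to 9.11 in K313 and 11.38 to 11.58 in WT, and the lymphocyte list to 7.73 to 7.94 in K313 and 9.97 to 10.58 in WT. The dendritic cell list summed to 7.22 to 7.24 in K313 and 7.40 to 7.50 in WT. A sum weighs its highest genes most: F13a1, the highest of the monocyte list, averaged 14.05 in K313 and 11.10 in WT. In that list F13a1 and Ccr2 rose, and Adgre1 fell (-0.78 ± 0.19, limma adjusted p = 0.027). In WT the highest genes of the basophil and mast cell, erythroid and megakaryocyte, and lymphocyte lists were Cpa3 (17.24), Gata1 (10.82) and Cd79b (9.52). Cpa3 itself was not called (-0.42 ± 0.15, limma adjusted p = 0.151). The 1 basophil and mast cell marker that rose was Prss34 (3.98 ± 0.21, adjusted p = 1.16e-06), against the direction of that list's sum. Near background in both groups were 3 of 6 lymphocyte and 4 of 6 dendritic cell markers. The part of other cells in the results below was not tested, and in bulk RNA fewer cells of a type and less RNA per cell cannot be told apart.

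Of the 10 members, 1 passed the test: Mxd4, which was lower in K313. No member was called higher. Across all probe sets 7.75% were called, 3.77% higher and 3.97% lower, so 1 of 10 is near the background. At an unadjusted p under 0.05 there were 5 members, 2 higher (Mxi1 and Mlx) and 3 lower (Mxd4, Mycn and Mnt), against 17.8% of all probe sets (8.79% higher and 9.04% lower). The 3 K313 values did not overlap the 3 WT values in 6 members (Myc, Mycn, Mxd4, Mxi1, Mnt and Mlx), against 21.9% of all probe sets. Means were at most 5 in both groups in 3 of the 10, against 10633 of the 22206 probe sets. A background of like level was not tested. The median difference of the members was -0.03, and that of all probe sets was 0.02.

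**Figure D1:**
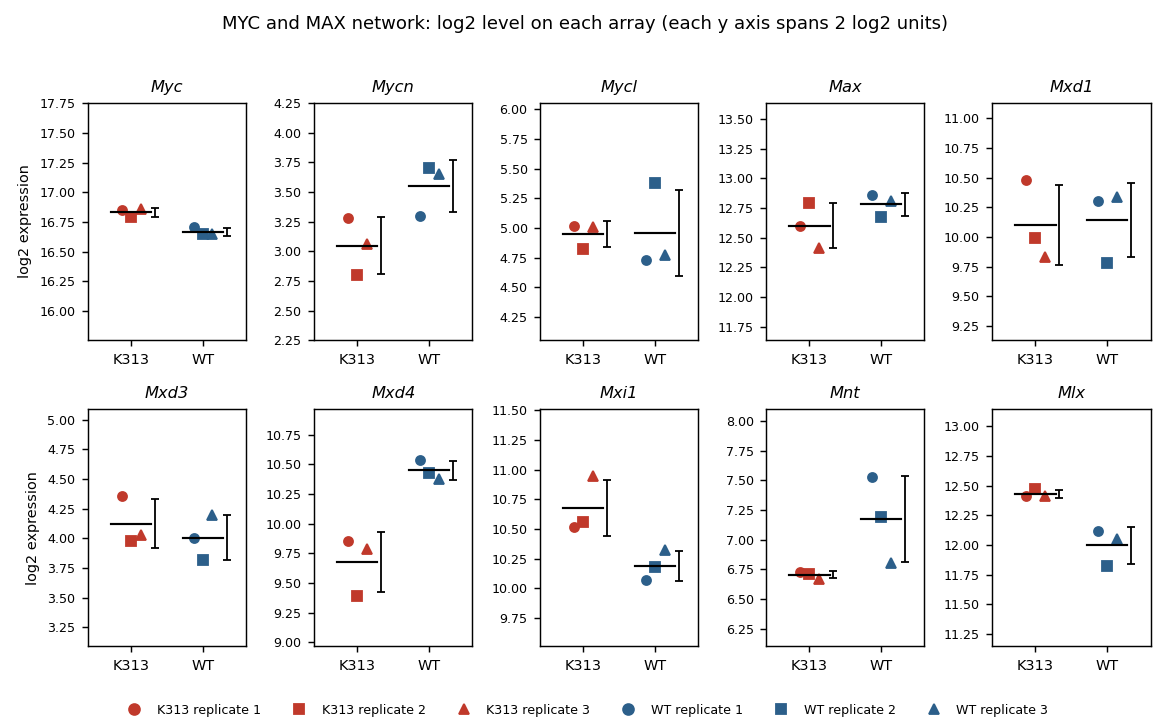
Log2 level of each of the 10 members on each array, K313 left and WT right; points are arrays, the horizontal line is the mean and the bar beside it is the SD (n = 3 per group). Every panel spans the same height, so Mxd4, with K313 at 9.39 to 9.85 and WT at 10.38 to 10.54 (a gap of 0.53 between the ranges), can be set against Myc (a gap of 0.08).

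The activators come first. Myc, the member through which C/EBPα and MYC are best known to oppose each other, read 16.85, 16.79 and 16.86 on the K313 arrays and 16.71, 16.65 and 16.65 on the WT arrays. All 3 K313 values lay above all 3 WT values, by a small margin, and each group spanned at most 0.07. The difference was 0.16 ± 0.14, 1.12-fold, and did not pass (adjusted p = 0.655). Its 95% interval, before adjustment, ran from 0.898-fold to 1.40-fold. The limma standard error borrows spread from other probe sets, and the spread of Myc's own 6 values gives a standard error of 0.03 with an adjusted p of 0.108. Shifting the arrays to a common median brought the difference to 0.09. The highest value of any probe set was 18.59.

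Mycn, the form of MYC best known from embryonic and neural cells, read 3.28, 2.80 and 3.06 in K313 and 3.30, 3.70 and 3.65 in WT. The groups did not overlap, though K313 replicate 1 and WT replicate 1 differ by 0.02. The difference was -0.50 ± 0.18 (adjusted p = 0.156), with all 6 values at the low end of the table. Mycl, which encodes L-MYC, read 5.02, 4.82 and 5.01 in K313 and 4.73, 5.38 and 4.77 in WT, and the groups overlapped. Its difference of -0.01 ± 0.20 (adjusted p = 0.989) had no settled sign. Both family members therefore gave levels at or near background, while Myc was measured far above it on every array.

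Max, the partner that MYC, MXD and MNT proteins share, read 12.60, 12.79 and 12.41 in K313 and 12.86, 12.67 and 12.81 in WT. The ranges overlapped, and the difference was -0.18 ± 0.16 (adjusted p = 0.662), with a 95% interval from 0.689-fold to 1.13-fold. Mlx, which stands in for MAX in the parallel branch, read 12.41, 12.47 and 12.41 in K313 and 12.12, 11.82 and 12.05 in WT. The K313 values were all above the WT values and spanned 0.06, and the difference was 0.43 ± 0.15, 1.35-fold. It missed the threshold (adjusted p = 0.144), and did so in each of 14 alternative fits, where adjusted p ran from 0.0993 to 0.326.

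The MXD repressors did not move as 1 group. Mxd4, which pairs with MAX and represses through SIN3, read 9.85, 9.39 and 9.79 in K313 and 10.54, 10.43 and 10.38 in WT. The highest K313 array lay 0.53 below the lowest WT array. Mxd4 fell by 0.77 ± 0.17 on the log2 scale, to 0.585-fold of WT (95% interval 0.451 to 0.759; limma adjusted p = 0.0163). The call was lost without K313 replicate 2 (difference -0.63, adjusted p = 0.0795), without WT replicate 1 (-0.73, 0.0576) and with ordinary variance (adjusted p = 0.124). It passed without WT replicate 3 (-0.81, adjusted p = 0.0412), in a fit that called 6.47% of all probe sets.

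Mxi1, an MXD protein known as an antagonist of MYC, read 10.52, 10.56 and 10.95 in K313 and 10.07, 10.18 and 10.32 in WT. The K313 values were all above the WT values, the opposite order to Mxd4, and the difference was 0.49 ± 0.17, 1.40-fold, short of the threshold (adjusted p = 0.140). The RefSeq table lists 3 start sites for Mxi1, and 1 probe set cannot tell their transcripts apart.

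Mxd1, the MXD protein induced as myeloid cells mature, read 10.48, 9.99 and 9.83 in K313 and 10.30, 9.78 and 10.34 in WT. The groups overlapped throughout, and the difference of -0.04 ± 0.22 (adjusted p = 0.960) had a 95% interval from 0.699-fold to 1.35-fold. Mxd3, known for its expression in dividing cells, read 4.36, 3.98 and 4.03 in K313 and 4.0, 3.82 and 4.20 in WT, near background in both groups, and differed by 0.12 ± 0.17 (adjusted p = 0.818). Neither of these repressors had a difference larger than the spread of its arrays.

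Mnt, the broadly expressed repressor that pairs with MAX and with MLX, read 6.73, 6.71 and 6.67 in K313 and 7.53, 7.19 and 6.80 in WT. The K313 arrays were close together while the WT arrays spanned 0.73, and WT replicate 3, the array that stands nearer to K313, lay 0.07 above the highest K313 value. The difference was -0.47 ± 0.19 (adjusted p = 0.222). It was -0.66 without WT replicate 3 (adjusted p = 0.0718) and -0.29 without WT replicate 1 (adjusted p = 0.504), so its size depends on which WT arrays are used.

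**Figure D2:**
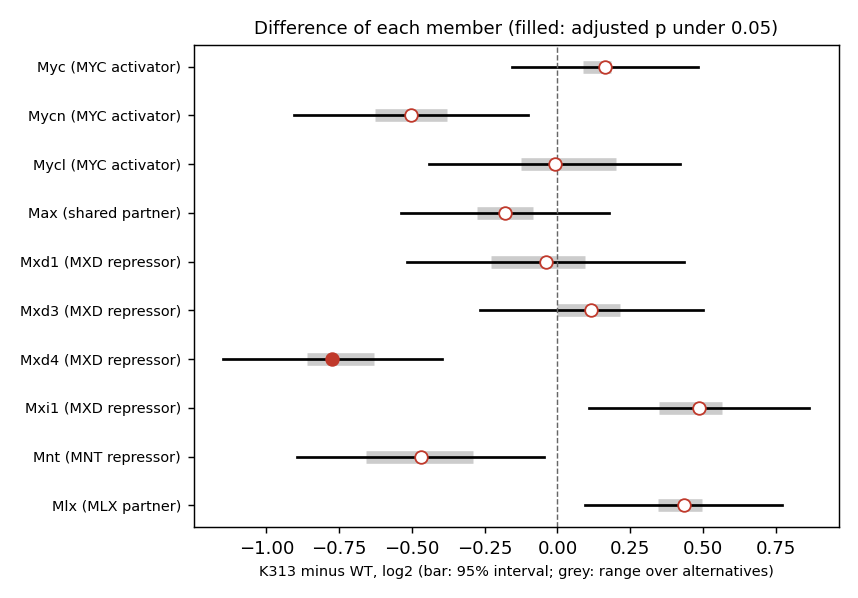
Difference of each member, K313 minus WT on the log2 scale: points are the limma estimates, black bars their 95% intervals before adjustment, and grey bands the range over the alternative fits. Mxd4 (-0.77) is the 1 filled point, with an adjusted p under 0.05; Mxi1 (0.49) and Mlx (0.43) lie to the right of 0, and Mnt (-0.47) and Mycn (-0.50) to the left.

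E-boxes are shown next because the network binds them and because several members carry one at their own start. RefSeq promoter windows (GRCm38.p6, 250 bases before to 50 after a start site) were matched for 9 of the 10 members, 11 windows in all. Myc was not matched. The E-box CACGTG reads the same on both strands. It was found in windows of 4 of these 9 members (Max, Mxd4, Mnt and Mlx), against 8.09% of 27025 genes with a window. Capitals mark the E-box in the 40 bases around it on the gene's strand, 5′ to 3′. These are chr5:34187907-34187946 (minus strand) for Mxd4, chr12:76962229-76962268 (minus) for Max, chr11:74830784-74830823 (plus) for Mnt and chr11:101087233-101087272 (plus) for Mlx.
Mxd4: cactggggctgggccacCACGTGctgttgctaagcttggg
Max: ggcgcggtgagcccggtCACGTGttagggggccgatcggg
Mnt: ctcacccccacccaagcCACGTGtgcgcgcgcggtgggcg
Mlx: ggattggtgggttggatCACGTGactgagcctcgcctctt

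The E-box begins 219 bases before the start site in Mxd4, 123 before it in Mnt and 40 before it in Mlx, and in Max it spans the start. These genes did not share a direction: Mxd4 fell, and Mnt (-0.47), Max (-0.18) and Mlx (0.43) did not pass. The 250 bases before the Mxd4 start (chr5:34187711-34187960, minus strand) are shown whole, since Mxd4 is the member that passed, with the E-box in capitals.
Mxd4: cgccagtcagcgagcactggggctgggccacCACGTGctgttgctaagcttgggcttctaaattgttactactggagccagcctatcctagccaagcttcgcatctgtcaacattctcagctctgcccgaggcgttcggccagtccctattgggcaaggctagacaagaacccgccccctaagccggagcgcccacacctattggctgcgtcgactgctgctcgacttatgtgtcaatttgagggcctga
A C/EBP-type motif, TTNCNNAA on either strand, was found in 4 of the 9 members (Mycn, Mxd1, Mxd3 and Mxd4), against 44.1% of genes. In Mxd4 the motif lies on the opposite strand. Its site reads TTGGGCAA on the gene's strand and begins 101 bases before the start. An E2F motif, TTTNNCGC on either strand, was found in Mycn alone among the 9, at 3 positions of which 2 overlap by 4 bases, against 5.93% of genes. The motifs are letters in a window, and binding was not measured.

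Transcripts of Arrdc4 and Txnip, genes known as targets of the MLX branch, were lower in K313. Activity of that branch was not measured. Of 5 genes known to be induced by MLX with MondoA or ChREBP, 2 fell and none rose (3.97% of all probe sets were lower and 3.77% higher; at an unadjusted p under 0.05, limma, 3 of the 5 were lower and 0 higher). None of the 5 differences was above 0, against 52.6% over all probe sets, and their median was -0.40, against 0.02. The difference nearest to 0 was -0.06, and 1 of the 5 genes was near background in both groups, against 10633 of the 22206 probe sets. The 5 genes were listed with earlier results of these data known, so these shares are not independent evidence. Arrdc4, an arrestin-family protein that limits glucose uptake, read 7.99, 8.20 and 8.35 in K313 and 9.03, 8.96 and 9.11 in WT. No K313 array reached the WT range, and Arrdc4 fell by 0.85 ± 0.16 on the log2 scale (limma adjusted p = 0.00586). It passed in each fit that left out 1 array, and missed the threshold with ordinary variance (adjusted p = 0.0595).

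Txnip, the thioredoxin-interacting protein that restrains glucose uptake and is the most used readout of MondoA with MLX, read 13.04, 12.61 and 12.73 in K313 and 13.33, 13.65 and 13.51 in WT. The groups did not overlap, and Txnip fell by 0.70 ± 0.17 (adjusted p = 0.0292). That call was lost without WT replicate 3 (-0.70, adjusted p = 0.0855) or WT replicate 2 (-0.63, 0.0934). Leaving out K313 replicate 2 (-0.61, 0.134) or K313 replicate 3 (-0.67, 0.104) also ended it, as did the replicate block (0.0675) and ordinary variance (0.157). Acaca and Fasn, enzymes of fatty acid synthesis that ChREBP induces in liver, differed by -0.40 ± 0.17 (adjusted p = 0.231) and -0.31 ± 0.19 (adjusted p = 0.461). MLX's partners MondoA and ChREBP, encoded by Mlxip and Mlxipl, differed by -0.10 ± 0.25 (adjusted p = 0.907) and 0.03 ± 0.18 (0.958), and Mga, a further partner of MAX, by 0.00 ± 0.19. Mlxipl was near background in both groups.

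Txnip and Arrdc4 are shown by sequence because they passed together and because MondoA with MLX acts on paired E-boxes, the carbohydrate response element. The element was searched as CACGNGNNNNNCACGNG on both strands, and 16 of 32851 windows held it, 0.0487%. The Txnip window was 1 of them. Capitals mark its half-sites, each CACGAG and so not the E-box CACGTG, in the 250 bases before the start (chr3:96557707-96557956, plus strand), where the element begins 85 bases before the start. In Arrdc4 capitals mark a single E-box 193 bases before the start (chr7:68749409-68749448, minus strand), with no second one at that spacing in the window.
Txnip: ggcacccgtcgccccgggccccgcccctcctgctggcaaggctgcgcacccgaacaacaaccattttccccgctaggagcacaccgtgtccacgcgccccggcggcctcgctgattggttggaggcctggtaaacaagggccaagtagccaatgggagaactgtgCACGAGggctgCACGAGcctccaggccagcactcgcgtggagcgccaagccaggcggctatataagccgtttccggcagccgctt
Arrdc4: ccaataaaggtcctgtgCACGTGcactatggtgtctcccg

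**Figure D3:**
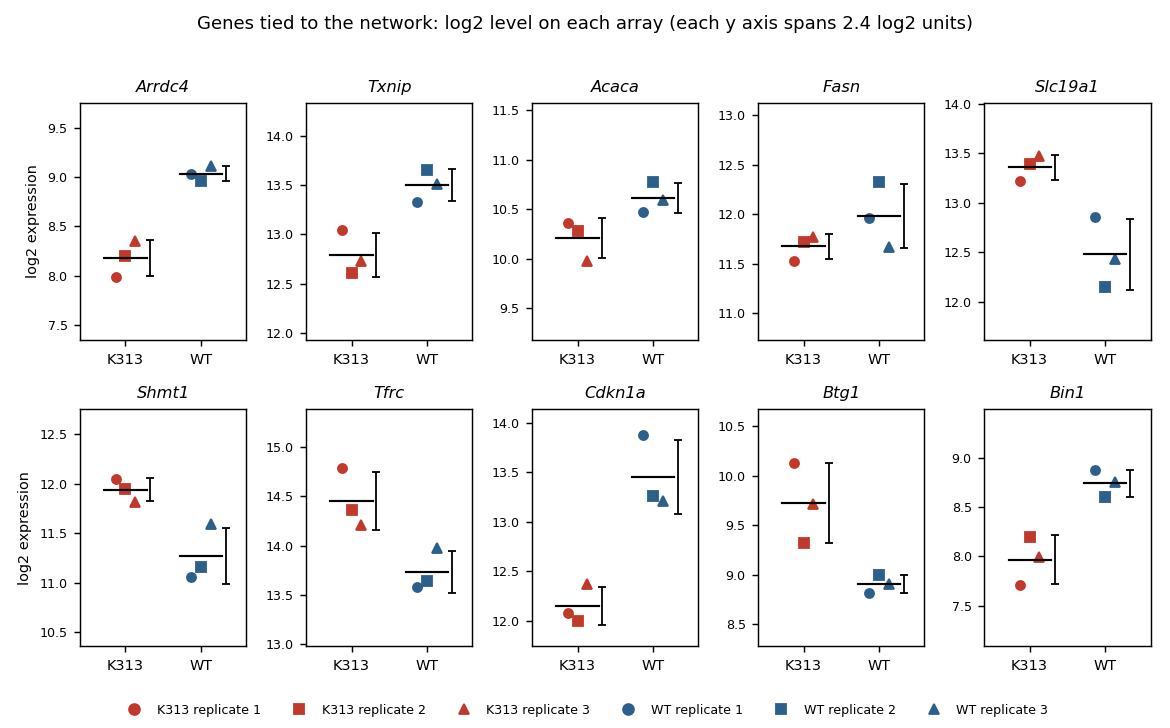
Log2 level on each array of 10 genes tied to the network, K313 left and WT right; points are arrays, lines means and bars SDs (n = 3 per group), and every panel spans the same height. Arrdc4, Txnip, Cdkn1a and Bin1 are lower on all K313 arrays, as is Acaca by a gap of 0.11, though Acaca did not pass. Slc19a1, Shmt1, Tfrc and Btg1 are higher on all K313 arrays, and Fasn overlaps.

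Differences of genes that MYC is known to activate were mostly small and above 0, and few of these genes passed. Of 74 listed genes 68 were matched, 3 rose and none fell, which is 4.41% higher against 3.77% of all probe sets. At an unadjusted p under 0.05 (limma) 13 of the 68 were higher and 0 lower. The shares over all probe sets were 8.79% higher and 9.04% lower. Differences were above 0 in 56 of the 68, against 52.6% of all probe sets, and the median was 0.20, against 0.02. Means were at most 5 in both groups in 1 of the 68, against 10633 of the 22206 probe sets. The list and its background thus differ in level, and a background of like level was not tested. After the arrays were shifted to a common median, 45 of 68 were above 0 against 40.2%, and the list's median was 0.12 against -0.06. Without WT replicate 3 the figures were 55 of 68 and a median of 0.20, with 3 higher. The list spans ribosome production, nucleotide synthesis and the cell cycle, and its differences ran from -0.25 to 0.88.

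**Figure D4:**
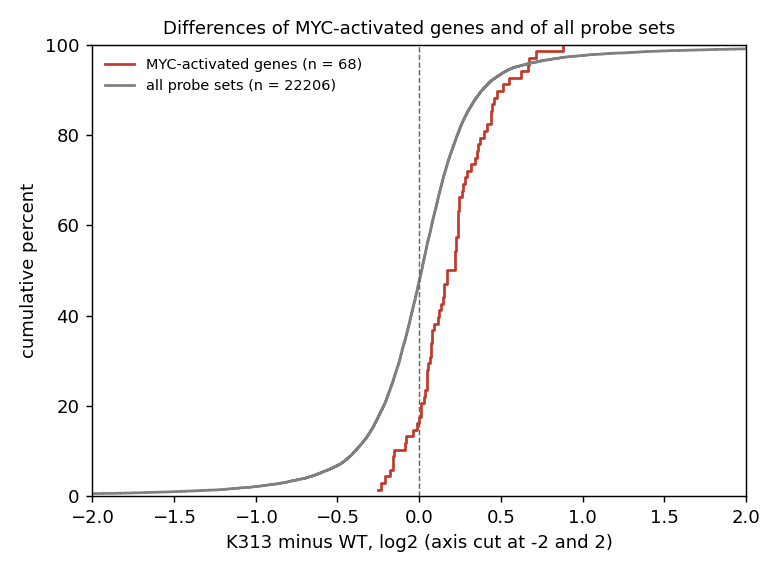
Cumulative percent of differences, K313 minus WT on the log2 scale, for 68 MYC-activated genes (red) and all 22206 probe sets (grey). The red curve crosses 50% near 0.20 and the grey curve near 0.02, and the red list ends at 0.88, inside the range of all probe sets. The grey curve includes 10633 probe sets with means of at most 5 in both groups.

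The 3 that rose are transport and folate genes. Slc19a1, the reduced folate carrier, read 13.22, 13.39 and 13.47 in K313 and 12.86, 12.15 and 12.43 in WT, with no overlap, and rose by 0.88 ± 0.20 (limma adjusted p = 0.0172). Shmt1, the cytosolic serine hydroxymethyltransferase, rose by 0.67 ± 0.18 (adjusted p = 0.0444), and Tfrc, the transferrin receptor, by 0.72 ± 0.19 (0.0458). Prmt5, an arginine methyltransferase, differed by 0.62 ± 0.19 (adjusted p = 0.0767), and passed without WT replicate 3 (0.0216). Slc19a1 missed the threshold when WT replicate 2 (adjusted p = 0.0573) or WT replicate 3 (0.0607) was left out, and likewise for K313 replicate 2 (0.0674) and K313 replicate 3 (0.0759). Shmt1 and Tfrc missed it with a common median (0.0850 and 0.0895). Shmt1 missed it in each fit that left out 1 array apart from WT replicate 3, and Tfrc in each apart from WT replicate 3 and K313 replicate 3; the count of rises was 0 without WT replicate 2 or K313 replicate 2, and 1 without WT replicate 1, K313 replicate 1 or K313 replicate 3.

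Of 13 genes that MYC is known to repress, 3 rose and 1 fell, against 3.77% higher and 3.97% lower over all probe sets, and the median difference was 0.18 against 0.02. Cdkn1a, the cyclin-dependent kinase inhibitor p21 that MYC represses with MIZ1, read 12.08, 12.00 and 12.37 in K313 and 13.88, 13.26 and 13.21 in WT. The groups were apart by 0.84, and Cdkn1a fell by 1.30 ± 0.21 (adjusted p = 0.00194), a call that held in every fit that left out 1 array and was lost with ordinary variance (0.115). The matrix protein genes Thbs1 and Tgfbi rose by 3.44 ± 0.33 (adjusted p = 4.7e-05) and 2.46 ± 0.21 (2.2e-05), and Btg1, an antiproliferative gene, by 0.81 ± 0.20 (0.0327). Thbs1 missed the threshold with ordinary variance (0.0708). Btg1 missed the threshold in each fit that left out 1 array apart from K313 replicate 2 (0.0893 without WT replicate 3), with a common median (0.0602), with the replicate block (0.0536) and with ordinary variance (0.248). Thbs1 and Tgfbi are also abundant in monocytes and macrophages. The marker sum of those cells was higher in K313 as given above, with F13a1 its highest gene, while the marker Adgre1 fell. The part of such cells was not tested.

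Among 14 cofactors or binding partners of MYC 1 fell and none rose (0 higher and 5 lower at an unadjusted p under 0.05, limma), with a median of -0.09. The counts do not separate partners that aid MYC from those that oppose it. Over all probe sets 3.97% were called lower, and at an unadjusted p under 0.05 8.79% were higher and 9.04% lower. None of the 14 had means of at most 5 in both groups, against 10633 of the 22206 probe sets, and a background of like level was not tested. Bin1, a MYC-interacting adaptor, read 7.71, 8.20 and 7.99 in K313 and 8.87, 8.60 and 8.75 in WT, and fell by 0.77 ± 0.17 (adjusted p = 0.0183). Without WT replicate 3 the difference was -0.77 with an adjusted p of 0.0584, and the call also ended without WT replicate 1 (0.0670), K313 replicate 1 (0.0761) or K313 replicate 3 (0.0583). Ep400, a chromatin remodeller of the TIP60 complex, differed by -0.73 ± 0.20 (0.0507; 0.0490 without K313 replicate 1), Zbtb17, which encodes MIZ1, by -0.46 ± 0.15 (0.102), and Trrap, the scaffold MYC binds, by -0.70 ± 0.28 (0.218).

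The corepressors that MXD and MNT recruit did not pass: of 9 measured, none was higher or lower with limma (0 higher and 3 lower at an unadjusted p under 0.05), and their median was -0.22. The scaffold Sin3a differed by -0.46 ± 0.18 (adjusted p = 0.199), its relative Sin3b by -0.43 ± 0.16 (0.154), the deacetylase Hdac2 by -0.39 ± 0.16 (0.218) and the histone chaperone Rbbp4 by -0.23 ± 0.15 (0.501). These 4 have the smallest p of the list, and 2 of the 9 differences were above 0, up to 0.29. The groups did not overlap in 5 of the 9, against 21.9% of all probe sets. At an unadjusted p under 0.05, 3 lower of 9 stands against 9.04% lower. None of the 9 had means of at most 5 in both groups, against 10633 of the 22206 probe sets. The list and its background thus differ in level, and a background of like level was not tested.

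Of 13 regulators of MYC protein stability 1 fell and none rose (2 higher and 2 lower at an unadjusted p under 0.05, limma), with a median of 0.07. Over all probe sets 7.75% were called and 17.8% had an unadjusted p under 0.05, so 1 call in 13 is near the background. Btrc, an F-box protein, fell by 0.66 ± 0.18 (adjusted p = 0.0472) and missed the threshold in each fit that left out 1 array, with adjusted p from 0.0513 to 0.196. Dusp6, a phosphatase of ERK, differed by 0.75 ± 0.21 (0.0511), and passed without WT replicate 3 (0.0301) or K313 replicate 1 (0.0355). Values short of the threshold were those of the ubiquitin ligase Huwe1, -0.58 ± 0.19 (0.111), and the mitotic kinase Aurka, 0.45 ± 0.18 (0.199).

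Of 22 probe sets of 21 genes that control Myc transcription or mRNA, 1 rose and 1 fell, with a median of -0.04. That is 4.55% each way, near the 3.77% higher and 3.97% lower over all probe sets. Tcf7l2, a transcription factor of the Wnt pathway, read 7.95, 7.63 and 7.80 in K313 and 5.51, 5.23 and 5.78 in WT, and rose by 2.29 ± 0.18 (limma adjusted p = 1.13e-05), in every fit that left out 1 array. Zfp36, an RNA-binding protein that promotes decay of AU-rich mRNAs, read 6.44, 5.84 and 6.22 in K313 and 7.02, 6.82 and 7.01 in WT. It fell by 0.78 ± 0.18 (0.0225). The call ended when WT replicate 3 (0.0775) or WT replicate 1 (0.0719) was left out, as it did for K313 replicate 2 (0.103) and for K313 replicate 3 (0.0631). The pocket protein Rbl2 differed by -0.63 ± 0.26 (0.231) and E2f2 by -0.48 ± 0.21 (0.277).

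The probe sets most like Myc and Mxd4 were found by the Euclidean distance between mean-centred log2 values over the 6 arrays. Unnamed gene models and olfactory and vomeronasal receptor genes were left out. For Myc they were Ppp2cb (0.08), a catalytic subunit of protein phosphatase 2A, Syn3 (0.08), a synapsin gene near background here, and Usb1 (0.09), an RNA exonuclease, with differences of 0.20, 0.12 and 0.13 that did not pass. For Mxd4 they were Atpaf1 (0.16), an assembly factor of ATP synthase, Dennd1c (0.18), a DENN domain gene, and Ep400 (0.20). Atpaf1 and Dennd1c fell by 0.70 ± 0.16 (adjusted p = 0.0243) and fell by 0.83 ± 0.18 (0.0133). Both calls ended without K313 replicate 2 (0.118 and 0.0692) or WT replicate 1 (0.0702 and 0.0527), and that of Atpaf1 without WT replicate 2 (0.0701). Because these genes were picked for values close to those of Mxd4, such falls and lost calls follow from the choice. They are not separate evidence.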

How the data were processed

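RNA of 6 samples was hybridised to Affymetrix Clariom S mouse arrays. The deposited values are log2 expression values, made with RMA and the Transcriptome Analysis Console per the submitters' processing notes, which give no version of either. RMA normalizes across arrays, so a global rise or fall of RNA per cell cannot be seen; the array medians still differ slightly, 5.06 to 5.13 in K313 and 5.01 to 5.06 in WT. Of 22206 probe sets 19572 have 1 symbol and 2634 none. No detection calls were used, and a mean of at most 5 is called near background. Arrays have no read depth; 3 per group limit the precision (median standard error 0.18).

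limma 3.58.1 (R 4.3.3; lmFit, eBayes, group as the only term, two-sided) was fitted on the whole table; p-values were adjusted by Benjamini-Hochberg and called under 0.05. The fit was checked on simulated data. Every adjusted p comes from this fit unless the text names an alternative beside it. The members and lists were chosen with earlier results of these data known, so their shares are not independent evidence. Named genes are all members, up to 4 genes per list by smallest p, the 3 nearest in pattern to Myc and Mxd4, and Cebpa, Hoxb8, Chil3, Mgst1 and Eif2s3y as checks. Some cell markers are named as well. Alternatives were quantile normalization, a common median, an intensity trend with robust prior, array weights, dropping probe sets in the lowest 30%, ordinary variance, 1-symbol probe sets, a replicate block and leaving out each array. No batch is given in the labels. Promoter windows are from RefSeq, GRCm38.p6, and the sources used here name no build for the array.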

Additional observations from a re-analysis of the deposited data

How the results depend on the processing

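The single lower member, Mxd4, was also called in 11 of 14 alternatives; the number of members lower was 0 with ordinary variance and 0 to 1 when 1 array was left out. No member was called higher in any alternative. The number of MYC-activated genes called higher was 3 in the fit reported, 1 with a common median, 1 with array weights, 0 with ordinary variance, 1 with the replicate block, and 0 to 3 when 1 array was left out; none was lower in any. Probe sets called numbered 1720, 496 with ordinary variance, and 1228 to 1465 when 1 array was left out. The deviations of same-numbered arrays from their group means correlated at -0.06, 0.03 and -0.06, and 0 of 6 arrays correlated best with their own number. No pairing by number was thus seen over all probe sets. These correlations cannot tell whether a smaller part of the genes is paired. With the replicate block 1546 probe sets passed, Mxd4 among them (adjusted p = 0.0287). Signs near 0 turned: Mycl was 0.014 with array weights and -0.13 to 0.20 when 1 array was left out, Mxd1 -0.23 to 0.095 and Mxd3 -0.0017 to 0.21 likewise. Mga was -0.073 with a common median, -0.024 with array weights and -0.18 to 0.12 when 1 array was left out; Mlxipl was -0.030 with quantile normalization, -0.043 with a common median and -0.058 to 0.15; Mlxip was -0.30 to 0.16. The cause of these changes was not tested. Mycn was among the probe sets removed by the filter on low values and has no value there.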
